A study of Mus musculus with 8 samples.

Results

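Messenger RNA levels of 10 transcription factors of naive pluripotency were followed in mouse embryonic stem cells (ESCs) in which the Htatsf1 gene was deleted. The genes are Klf2, Klf4, Klf5, Esrrb, Nr5a2, Nr0b1, Tfcp2l1, Tbx3, Prdm14 and Gbx2. They were taken by symbol from the expression tables, which list 20461 gene identifiers, and all 10 were found and passed the filter that left 11867 genes for testing. The rule that names them uses no threshold on a measured value. The ESCs were derived from tatsf1 flox/flox CreERT2 mice, in which CreERT2, a recombinase that tamoxifen activates, removes the floxed gene. Htatsf1 encodes an RNA-binding protein of the splicing machinery. The 4 groups, with 2 libraries each, were tamoxifen for 72 h, ethanol for 72 h, tamoxifen for 48 h and ethanol for 48 h, ethanol being the vehicle and control. Cells of every group carried the floxed allele and CreERT2 and were grown on mouse embryonic fibroblasts (MEFs) in conventional ESC medium, so an effect of tamoxifen or of the active recombinase and an effect of the deletion cannot be told apart. The promoter that drives CreERT2 and the number of ESC lines are not given in the sources used here. Separate cultures are not named for the 2 libraries of a group, and p-values therefore reflect their spread alone, technical or not.

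Mouse ESCs in the naive state resemble the epiblast of the blastocyst before implantation. The cytokine LIF, through STAT3, and WNT signalling, which relieves repression by the TCF factor TCF7L1, hold this state up by acting on a set of factors that bind one another's regulatory elements. The Krüppel-like factors KLF2, KLF4 and KLF5 have overlapping functions, with KLF4 known as a target of STAT3. ESRRB and NR5A2 are orphan nuclear receptors that activate Pou5f1 and Nanog. NR0B1, also called DAX1, is an atypical nuclear receptor that acts mainly as a corepressor. TFCP2L1 and GBX2 are known targets of STAT3, TBX3 is a T-box factor, and PRDM14 represses FGF signalling and the de novo DNA methyltransferases. Fibroblasts are known to express some of these genes as well, Klf4, Klf2 and Tbx3 among them, so that part of their signal can come from the feeder layer.

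The promoters of 7 of the 10 genes were matched in RefSeq's promoter table for GRCm38.p6, with 9 start sites in all. Klf5, Tbx3 and Prdm14 were not matched. The 250 bases before each start are shown for the 4 genes whose response to tamoxifen differed between the times (Klf2, Klf4, Nr0b1 and Nr5a2), and for Tfcp2l1 and the first start of Esrrb, which hold a searched motif. They run from 5′ to 3′ on the gene's own strand, in lower case, with motif matches in capitals.
Klf2 (chr8:72318812-72319061, plus strand): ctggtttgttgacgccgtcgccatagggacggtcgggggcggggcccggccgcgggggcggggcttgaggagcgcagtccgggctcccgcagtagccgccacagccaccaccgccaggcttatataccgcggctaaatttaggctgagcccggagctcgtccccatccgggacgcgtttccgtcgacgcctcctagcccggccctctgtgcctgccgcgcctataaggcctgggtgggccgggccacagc
Klf4 (chr4:55532476-55532725, minus strand): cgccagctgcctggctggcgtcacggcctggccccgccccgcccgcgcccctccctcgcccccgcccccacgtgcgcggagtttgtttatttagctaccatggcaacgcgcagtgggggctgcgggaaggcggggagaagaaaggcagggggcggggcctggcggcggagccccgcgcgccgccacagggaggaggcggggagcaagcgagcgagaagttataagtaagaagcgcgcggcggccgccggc
Nr0b1 (chrX:86191525-86191774, plus strand): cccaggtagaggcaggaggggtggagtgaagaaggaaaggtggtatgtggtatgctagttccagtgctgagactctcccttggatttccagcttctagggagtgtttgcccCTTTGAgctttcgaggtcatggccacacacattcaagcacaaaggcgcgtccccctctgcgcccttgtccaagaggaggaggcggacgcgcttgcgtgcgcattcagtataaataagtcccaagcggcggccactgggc
Nr5a2 start 1 (chr1:136960449-136960698, minus strand): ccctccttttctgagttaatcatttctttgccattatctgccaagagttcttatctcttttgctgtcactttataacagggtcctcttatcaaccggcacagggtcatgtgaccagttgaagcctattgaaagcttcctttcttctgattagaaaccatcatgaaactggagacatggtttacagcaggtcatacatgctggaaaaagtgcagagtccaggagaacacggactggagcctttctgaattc
Nr5a2 start 2 (chr1:136953631-136953880, minus strand): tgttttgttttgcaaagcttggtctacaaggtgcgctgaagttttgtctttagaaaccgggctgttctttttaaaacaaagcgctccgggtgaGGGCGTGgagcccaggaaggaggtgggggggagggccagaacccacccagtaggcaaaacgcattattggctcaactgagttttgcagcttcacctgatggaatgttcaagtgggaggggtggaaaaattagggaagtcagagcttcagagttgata
Tfcp2l1 (chr1:118627695-118627944, plus strand): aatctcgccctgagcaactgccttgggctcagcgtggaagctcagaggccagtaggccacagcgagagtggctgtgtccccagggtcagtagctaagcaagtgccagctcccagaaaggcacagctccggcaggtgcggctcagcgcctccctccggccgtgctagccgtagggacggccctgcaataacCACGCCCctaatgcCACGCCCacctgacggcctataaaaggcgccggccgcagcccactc
Esrrb start 1 (chr12:86360867-86361116, plus strand): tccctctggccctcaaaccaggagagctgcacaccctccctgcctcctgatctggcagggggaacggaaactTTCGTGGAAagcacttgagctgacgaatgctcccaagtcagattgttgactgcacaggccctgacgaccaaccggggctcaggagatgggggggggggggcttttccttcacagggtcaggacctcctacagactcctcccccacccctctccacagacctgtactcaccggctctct

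The searched motifs were GGGCGTG for KLF factors, TCAAGGTCA for ESRRB, TTCNNNGAA for STAT factors and CTTTGA for TCF factors, each on both strands, and no match overlapped another. The KLF motif stands in the Tfcp2l1 promoter, on the other strand, with its first base at -60 and at -46 from the start, and in the second Nr5a2 promoter at -157. Among all 32851 promoters of this length 7.55% hold it. The STAT motif stands in the first Esrrb promoter at -178, against 7.02% of all promoters, and the TCF motif in the Nr0b1 promoter at -139, against 13.8%. The ESRRB motif, which 0.387% of all promoters hold, has no match in the 9 windows. The windows of Klf2 and Klf4 are rich in G and C (71.2% and 74.0%), and the first Nr5a2 window has 43.2%. These matches are letters in a window and were not measured as binding.

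Levels are given as FPKM, which scale fragments by transcript length and by sequencing depth and so can be compared between genes. The libraries rested on 8.99 to 16.8 M fragments, as implied by the intervals around the deposited values, and the median tested gene on 260 to 531. Klf2 and Klf5 rested on at least 851 fragments in every library, Nr5a2 on 185 to 450 and Prdm14 on 33 to 97, so Prdm14 was the least precisely measured of the 10. Targeting was checked first. Htatsf1 (mm9 chromosome X, 54306747 to 54320359) had 4.12 and 4.63 FPKM in tamoxifen at 72 h, against 22.7 FPKM in both ethanol libraries, and 4.13 and 3.78 FPKM in tamoxifen at 48 h, against 23.0 and 21.7 FPKM in ethanol. Tamoxifen held 19.2% of the ethanol level at 72 h and 17.7% at 48 h, and the part of the feeder cells in this remainder was not tested. Of the defining markers of ESCs, Pou5f1 stood at 472 to 655 FPKM and Nanog at 61.3 to 154 FPKM over the 8 libraries. Of 30 fibroblast markers none was at 0 in any library, and their summed level was 1163 to 1238 FPKM in tamoxifen and 519 to 541 FPKM in ethanol at 72 h, and 797 to 803 FPKM in tamoxifen and 518 to 543 FPKM in ethanol at 48 h. In such bulk samples fewer stem cells and less RNA per stem cell cannot be told apart.

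At 48 h Klf2 was the most abundant of the 10 in both treatments and Prdm14 the least. In tamoxifen Klf2 averaged 67.9 ± 5.05 FPKM and Prdm14 1.39 ± 0.03 FPKM (SD, n = 2). In ethanol Klf2 averaged 68.3 ± 1.26 FPKM and Prdm14 1.24 ± 0.01 FPKM (SD, n = 2). At 72 h Esrrb was the most abundant in both treatments, at 108 ± 2.63 FPKM in tamoxifen and 111 ± 6.92 FPKM in ethanol (SD, n = 2 each). Between these ends Klf5 was among the abundant factors at both times and Nr0b1 at 48 h, while Nr5a2 and Tbx3 stood below 10 FPKM at 48 h.

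**Figure D1:**
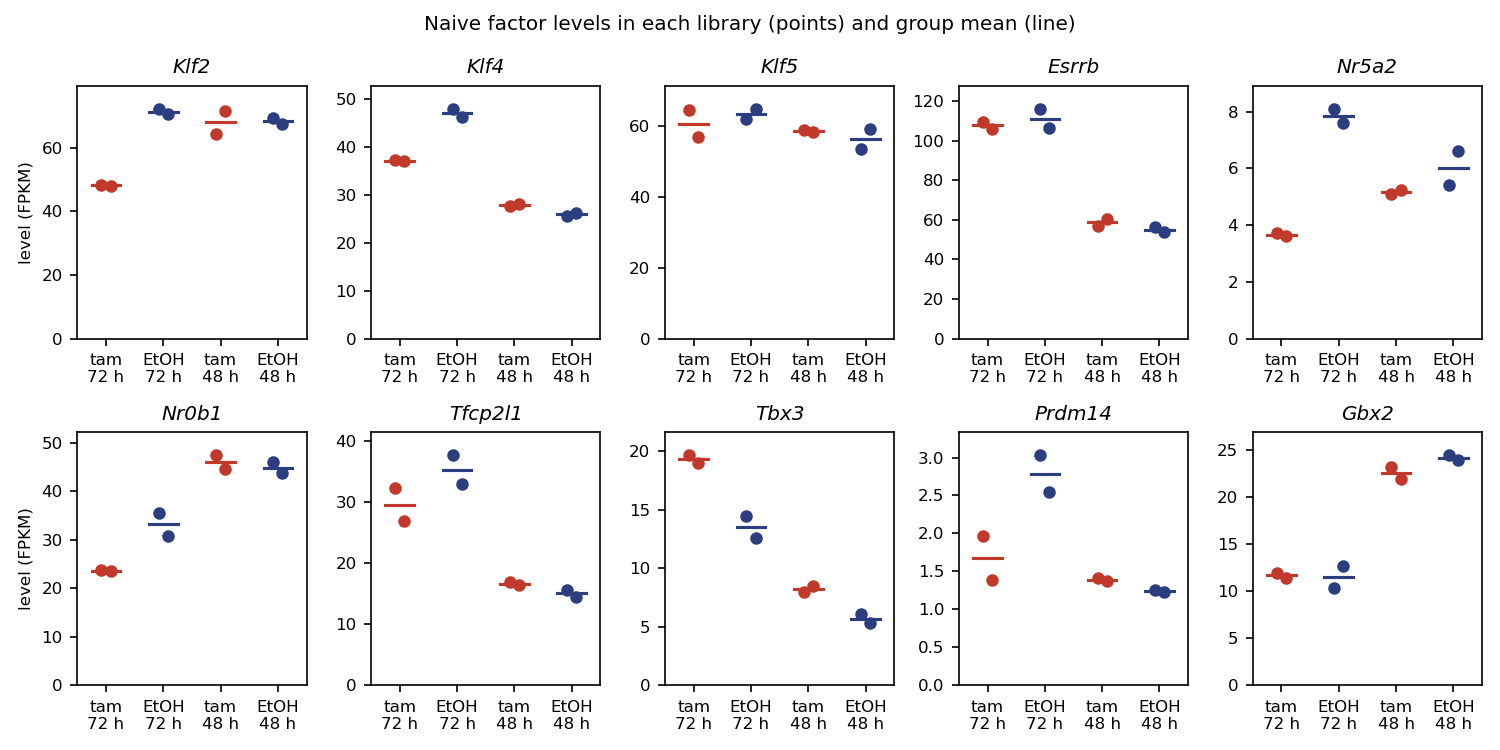
FPKM of the 10 naive factors in each of the 8 libraries (points) with the mean of each group of 2 (line), for tamoxifen (tam, red) and ethanol (EtOH, blue) at 72 h and 48 h. Klf2, Klf4, Nr5a2, Nr0b1 and Prdm14 are lower in tamoxifen than in ethanol at 72 h, Tbx3 is higher in tamoxifen at both times, and Esrrb, Tfcp2l1 and Gbx2 differ mainly between the times.

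The comparison at 48 h asked how these factors stood early after deletion. Of the 10 factors 1 rose and 0 fell in tamoxifen, beside 12.4% of all tested genes called in either direction (7.88% higher, 4.47% lower). Limma gave the same counts, 1 and 0, at an unadjusted p under 0.05, where the share of all genes was not computed. The factor that rose was Tbx3 (mm9 chromosome 5, 120120678 to 120134610). It had 7.94 and 8.49 FPKM in tamoxifen, against 6.07 and 5.28 FPKM in ethanol. Both tamoxifen libraries lay above both ethanol libraries, with a log2 change of 0.47 ± 0.09 (SE, limma, adjusted p = 0.00843). A called gene is one with an adjusted p under 0.05 over all genes tested, and all log2 changes were taken after adding 1 to the FPKM, which makes them too small for low genes such as Tbx3, Nr5a2 and Prdm14. The Tbx3 call was lost without tamoxifen replicate 2, without ethanol replicate 2 or without a filter on low values, with limma's adjusted p between 0.00683 and 0.0852 over the alternatives.

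The 3 Krüppel-like factors did not pass at 48 h. Klf2 had 64.4 and 71.5 FPKM in tamoxifen, against 69.2 and 67.4 FPKM in ethanol, and Klf5 had 59.0 and 58.3 FPKM in tamoxifen, against 53.6 and 59.1 FPKM in ethanol, so that for both genes the groups overlapped. Klf4, at 27.7 and 28.2 FPKM in tamoxifen against 25.6 and 26.3 FPKM in ethanol, did not overlap, with a log2 difference of 0.10 (95% interval -0.02 to 0.22). The intervals of Klf2 (-0.14 to 0.12) and Klf5 (-0.10 to 0.21) also held 0.

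The nuclear receptors did not pass either. Esrrb had 56.9 and 60.6 FPKM in tamoxifen, against 56.5 and 53.7 FPKM in ethanol (interval of the log2 difference -0.04 to 0.23). Nr0b1 had 47.4 and 44.5 FPKM in tamoxifen, against 46.0 and 43.8 FPKM in ethanol (-0.13 to 0.19). Nr5a2, with 5.08 and 5.23 FPKM in tamoxifen against 5.41 and 6.63 FPKM in ethanol, lay lower in both tamoxifen libraries, and its interval ran from -0.40 to 0.03. The remaining 3 factors were also not called. Tfcp2l1 had 16.9 and 16.3 FPKM in tamoxifen, against 15.6 and 14.4 FPKM in ethanol, and Prdm14 had 1.41 and 1.37 FPKM in tamoxifen, against 1.25 and 1.23 FPKM in ethanol. Gbx2 had 23.2 and 21.9 FPKM in tamoxifen, against 24.4 and 24.0 FPKM in ethanol. In these 3 genes the groups did not overlap, and the difference missed the threshold, with limma's adjusted p at 0.364, 0.68 and 0.491. The share of all tested genes without overlap was not computed for this or any other comparison. The median log2 difference of the 10 was 0.07, beside 0.02 over all tested genes.

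At 72 h the same comparison gave 5 factors that fell and 1 that rose in tamoxifen. Klf2, Klf4, Nr0b1, Nr5a2 and Prdm14 fell, Tbx3 rose, and Klf5, Esrrb, Tfcp2l1 and Gbx2 did not pass. Over all tested genes 38.5% were called, 18.5% lower and 20.1% higher, against which 6 of 10 is to be read. The median log2 change of the 10 was -0.29, beside -0.01 over all genes.

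Among the Krüppel-like factors Klf2 (mm9 chromosome 8, 74842961 to 74845553) had 48.1 FPKM in both tamoxifen libraries at 72 h, against 72.1 and 70.5 FPKM in ethanol. Tamoxifen held 67.5% of the ethanol level, a log2 change of -0.56 ± 0.06 (SE, limma, adjusted p = 7.22e-05). Klf4 (mm9 chromosome 4, 55540009 to 55545347) had 37.3 and 37.0 FPKM in tamoxifen, against 48.0 and 46.2 FPKM in ethanol. This was 78.9% of ethanol, a log2 change of -0.33 ± 0.05 (SE, limma, adjusted p = 0.000977). Klf5 (mm9 chromosome 14, 99697910 to 99712628), with 64.5 and 56.9 FPKM in tamoxifen against 62.1 and 64.8 FPKM in ethanol, overlapped between the groups and was not called. Its interval, -0.22 to 0.09, left out the estimates for Klf2 and Klf4 under the deposited scaling, but overlapped the interval of Klf4 (-0.45 to -0.21). The differences between these genes were not tested. The family thus had 2 members that fell and 1 that did not pass.

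Of the nuclear receptors Nr5a2 (mm9 chromosome 1, 138740161 to 138857025) had 3.71 and 3.60 FPKM in tamoxifen, against 8.09 and 7.61 FPKM in ethanol. Its tamoxifen level was 46.6% of ethanol, a log2 change of -0.93 ± 0.10 (SE, limma, adjusted p = 6.11e-05), and the fall was the largest of the 10 on the log2 scale under the deposited and the stem cell scaling. Nr0b1 (mm9 chromosome X, 83437114 to 83441283) had 23.7 and 23.5 FPKM in tamoxifen, against 35.6 and 30.8 FPKM in ethanol, which is 71.1% of ethanol and a log2 change of -0.47 ± 0.07 (SE, limma, adjusted p = 0.0007). Esrrb (mm9 chromosome 12, 87702067 to 87862578) had 109.6 and 106 FPKM in tamoxifen, against 116 and 106 FPKM in ethanol. Here the groups overlapped, and the interval of the log2 difference was -0.18 to 0.09. The 2 receptors known as activators thus stood apart at 72 h, Nr5a2 called lower and Esrrb not called, but the difference between these genes was not tested.

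Prdm14 (mm9 chromosome 1, 13103509 to 13117244) had 1.97 and 1.39 FPKM in tamoxifen at 72 h, against 3.03 and 2.55 FPKM in ethanol. The groups did not overlap, and the log2 change was -0.51 ± 0.12 (SE, limma, adjusted p = 0.00937). Its call was lost without tamoxifen replicate 2, without ethanol replicate 1 or without a filter on low values, with limma's adjusted p between 0.00487 and 0.0742 over the alternatives. Tbx3, the factor higher at 48 h, had 19.6 and 19.0 FPKM in tamoxifen at 72 h, against 14.5 and 12.6 FPKM in ethanol. It stood at 143% of ethanol, a log2 change of 0.48 ± 0.09 (SE, limma, adjusted p = 0.00186), close to the 145% of 48 h.

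Tfcp2l1 (mm9 chromosome 1, 120524522 to 120581745) had 32.2 and 26.9 FPKM in tamoxifen, against 37.6 and 32.9 FPKM in ethanol. The groups did not overlap, and the log2 difference of -0.25 ± 0.09 missed the threshold (SE, limma, adjusted p = 0.0545). It passed in 5 of 18 alternatives, with limma's adjusted p between 0.0154 and 0.427. Gbx2 (mm9 chromosome 1, 91824537 to 91827751) had 12.0 and 11.4 FPKM in tamoxifen, within the range of the ethanol libraries at 10.3 and 12.7 FPKM. Its log2 difference was 0.03, with an interval from -0.16 to 0.22.

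**Figure D2:**
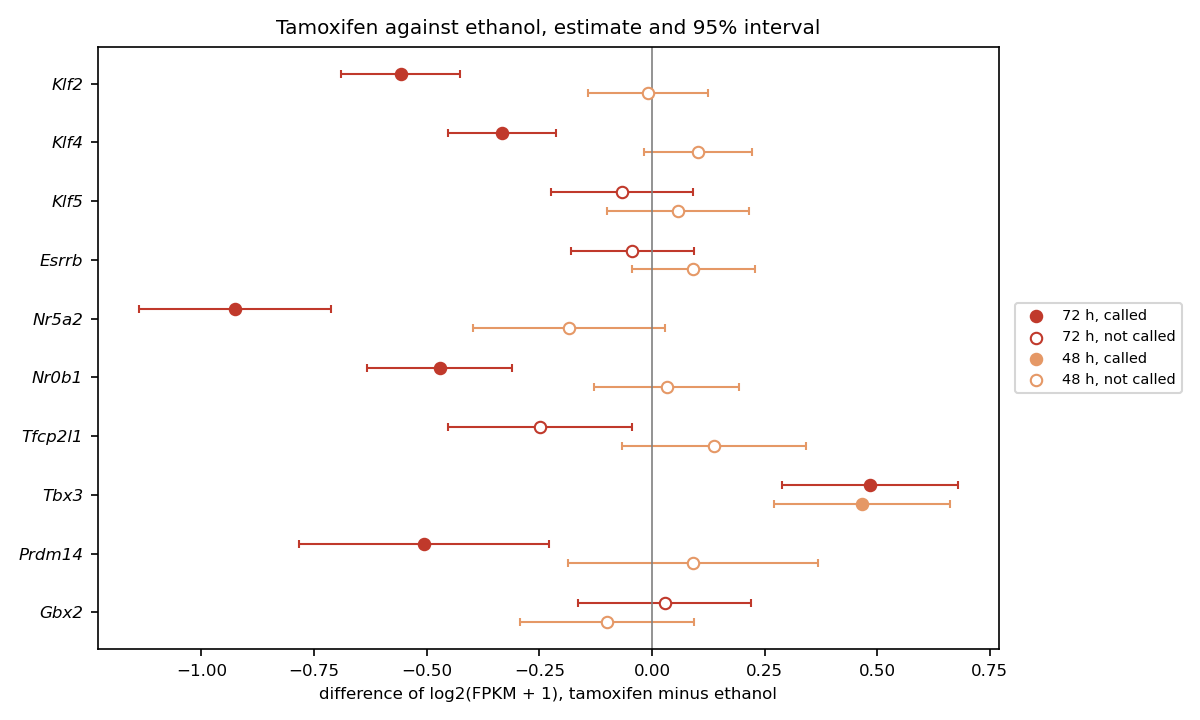
Difference of log2(FPKM + 1) between tamoxifen and ethanol for the 10 naive factors at 72 h (red) and 48 h (orange), as limma's estimate with its 95% interval, filled where the gene was called at an adjusted p under 0.05. At 72 h Klf2, Klf4, Nr5a2, Nr0b1 and Prdm14 are filled left of 0 and Tbx3 right of 0, and at 48 h Tbx3 alone is filled.

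The authors' deposited tables, made from scaled counts, gave the same direction for each of the called factors. In the authors' deposited table at 48 h Tbx3 was the 1 factor of 10 called (log2 0.56, sign turned to tamoxifen over ethanol), beside 11.9% of its genes in either direction, 6.62% higher and 5.31% lower. In the authors' deposited table at 72 h 6 of 10 factors were called lower and Tbx3 higher, beside 32% of its genes in either direction, 15.5% lower and 16.5% higher. The sixth lower factor of the authors' deposited table was Tfcp2l1 (log2 -0.27, their adjusted p = 0.00179). For Nr5a2 the authors' deposited table gave a log2 change of -1.23 at 72 h.

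Fibroblast markers were higher in the same tamoxifen libraries, with 29 of 29 tested called higher at 72 h and 26 of 29 at 48 h. Over all tested genes 20.1% were called higher at 72 h and 7.88% at 48 h. The medians of the markers were 1.06 and 0.53 on the log2 scale. For example, Acta2, an actin of contractile cells, had 104 and 105 FPKM in tamoxifen at 72 h, against 34.7 and 38.0 FPKM in ethanol. To set the factors against other stem cell transcripts, the comparison was repeated with each library scaled by 10 other stem cell genes (Pou5f1, Zfp42, Sall4, Dppa5a, Tdgf1, L1td1, Lin28a, Utf1, Dppa4 and Dppa2). Of these 10, 5 were themselves called lower in tamoxifen at 72 h under the deposited scaling, beside 18.5% of all tested genes. On this scale the median of all genes at 72 h was 0.13, and the 5 falls were smaller but all called. Klf2 stood at -0.41, Klf4 at -0.18, Nr0b1 at -0.32, Nr5a2 at -0.81 and Prdm14 at -0.41, with limma's adjusted p at most 0.023. Esrrb (0.11) and Klf5 (0.09) turned from a small negative to a small positive value, both not called, Tfcp2l1 came to -0.10, and Tbx3 rose by 0.63. Esrrb and Klf5 lay below the median of all genes on that scale, and Tbx3 lay above it. The part of feeder RNA in the rise of Tbx3 was not tested.

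**Figure D3:**
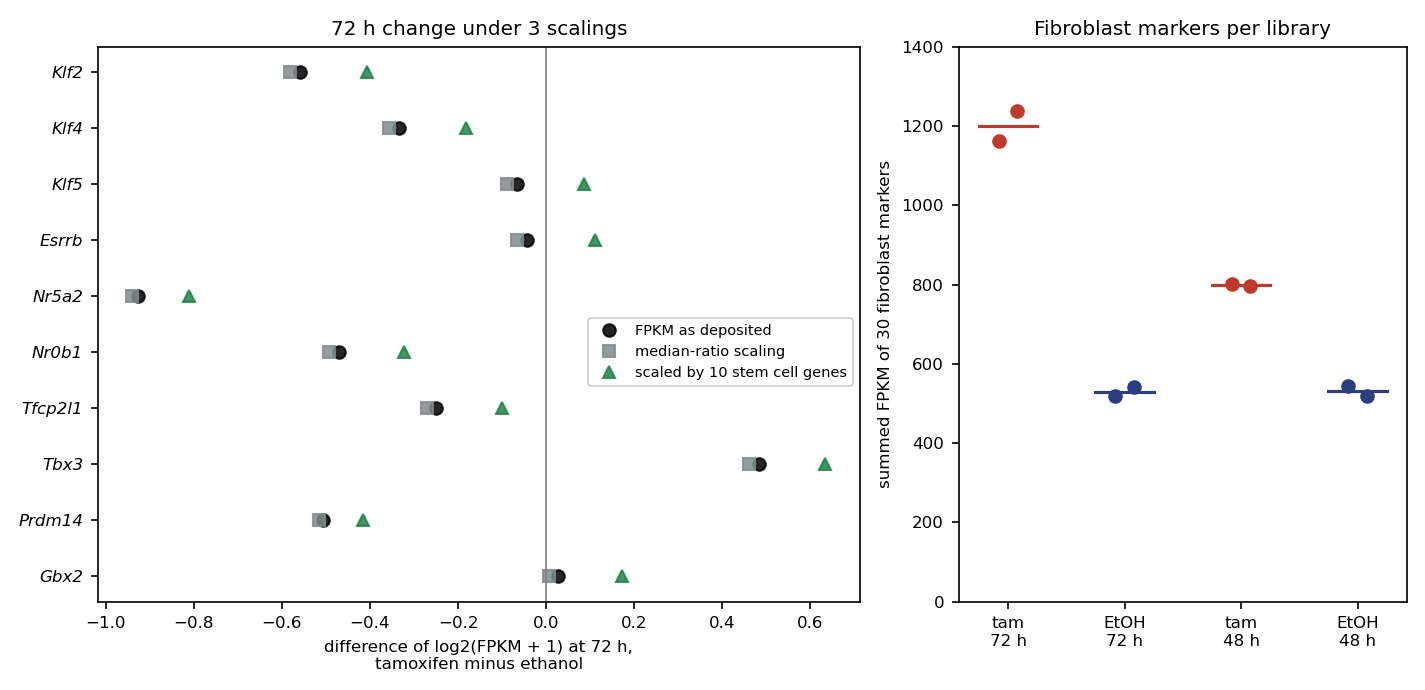
Left, difference of log2(FPKM + 1) between tamoxifen and ethanol at 72 h for each naive factor under the deposited scaling, a median-ratio scaling and a scaling by 10 stem cell genes. Right, summed FPKM of 30 fibroblast markers in each library (points) with group means (lines). The stem cell scaling moves every factor to the right and leaves Nr5a2 and Klf2 far below 0, and the markers reach 1163 to 1238 FPKM in tamoxifen at 72 h.

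Whether the response differed between the times was tested directly, as the change in tamoxifen at 72 h minus that at 48 h. It was more negative at 72 h for 4 of 10 factors and more positive for 0, beside 3.45% of all genes called in this test (1.45% more negative, 2% more positive). At limma's unadjusted p under 0.05, where the share of all genes was not computed, it was more negative for 6 and more positive for 0. The 4 were Klf2, Klf4, Nr0b1 and Nr5a2. For Klf2 the log2 changes were -0.56 at 72 h and -0.01 at 48 h, a difference of -0.55 ± 0.08 (SE, limma, adjusted p = 0.0134). For Nr5a2 the changes were -0.93 at 72 h and -0.18 at 48 h, a difference of -0.74 ± 0.14 (SE, limma, adjusted p = 0.025). For Klf4 they were -0.33 at 72 h and 0.10 at 48 h (difference -0.44 ± 0.08 SE, limma, adjusted p = 0.0211), and for Nr0b1 -0.47 at 72 h and 0.03 at 48 h (difference -0.50 ± 0.10 SE, limma, adjusted p = 0.0312). Prdm14, with a difference of -0.60, and Tfcp2l1, with -0.39, did not pass (limma, adjusted p = 0.0951 and 0.127). Tbx3 had a difference of 0.02, with an interval from -0.26 to 0.29. This test was sensitive to single libraries. Leaving out 1 of the 8 in turn gave 0 to 3 lower factors, with 0 without ethanol 48 h replicate 1 and 1 without either tamoxifen 48 h library, ethanol 48 h replicate 2 or ethanol 72 h replicate 1, and 2 without tamoxifen 72 h replicate 2.

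In ethanol, where the gene was not deleted, 6 factors were higher at 72 h than at 48 h and 2 were lower. All genes tested moved widely with time, 57.2% being called (38% higher, 19.2% lower), and as no label states that both times were prepared and sequenced together, time and any such batch cannot be told apart. Tfcp2l1, Tbx3 and Esrrb had the largest rises of the 10 on the scale of log2(FPKM + 1) under the deposited scaling. Tbx3 averaged 13.5 ± 1.31 FPKM at 72 h and 5.68 ± 0.56 FPKM at 48 h (SD, n = 2 each, log2 change 1.12 ± 0.09 SE, limma, adjusted p = 6.02e-06). Tfcp2l1 averaged 35.3 ± 3.30 FPKM at 72 h and 15.0 ± 0.88 FPKM at 48 h (SD, n = 2 each, log2 change 1.18 ± 0.09 SE, limma, adjusted p = 6.01e-06). Esrrb averaged 111 ± 6.92 FPKM at 72 h and 55.1 ± 1.97 FPKM at 48 h (SD, n = 2 each, log2 change 1.00 ± 0.06 SE, limma, adjusted p = 1.48e-06). Their levels at 72 h were 235% (Tfcp2l1), 239% (Tbx3) and 202% (Esrrb) of those at 48 h, and by this ratio the low Prdm14, at 224%, stood above Esrrb.

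Klf4, Prdm14 and Nr5a2 were also higher at 72 h in ethanol, by 0.84 ± 0.05, 0.75 ± 0.12 and 0.34 ± 0.10 (SE). The call of Nr5a2 (limma, adjusted p = 0.0116) was lost in 5 of 18 alternatives, among them a median-ratio scaling and leaving out ethanol 48 h replicate 1 or ethanol 72 h replicate 1 (limma, adjusted p from 0.000279 to 0.197 over the alternatives). Gbx2 moved the other way, averaging 11.5 ± 1.65 FPKM at 72 h and 24.2 ± 0.33 FPKM at 48 h (SD, n = 2 each, log2 change -1.02 ± 0.09 SE, limma, adjusted p = 8.9e-06). Nr0b1 also fell, by 0.43 ± 0.07 on the log2 scale (SE, limma, adjusted p = 0.000621), and this call was lost when libraries were scaled by the stem cell genes (-0.17). Klf2 (0.06) and Klf5 (0.17) were not called, and scaled by the stem cell genes both were called higher (0.32 and 0.43), with a median of all genes at 0.33 on that scale. Of the 10 scaling genes 7 were themselves called lower with time in ethanol and 2 higher under the deposited scaling. Over all tested genes 19.2% were called lower and 38% higher. Klf2 turned to -0.07 under a median-ratio scaling.

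In tamoxifen 4 factors were higher at 72 h than at 48 h and 4 were lower, beside 57.1% of all genes called (37.5% higher, 19.6% lower). Tbx3 (1.14), Esrrb (0.86), Tfcp2l1 (0.79) and Klf4 (0.40) were the higher ones, and these 4 were higher with time in ethanol too. Gbx2 (-0.89) and Nr0b1 (-0.93) were lower with time, as they were in ethanol. Klf2 and Nr5a2 were lower with time only in the tamoxifen libraries, where Klf2 had a log2 change of -0.49 ± 0.06 (SE, limma, adjusted p = 8.78e-05) and Nr5a2 of -0.40 ± 0.10 (SE, limma, adjusted p = 0.00488). The test of this contrast between treatments is the same as that of the difference above, and it was passed by both genes. When libraries were scaled by the stem cell genes, Klf2 (-0.11) and Nr5a2 (-0.09) were not called lower with time, while the median of all genes was 0.45 on that scale. Of the 10 scaling genes 8 were themselves called lower with time in tamoxifen and 1 higher under the deposited scaling, beside 19.6% and 37.5% of all genes. Prdm14 (0.16) and Klf5 (0.05) were not called.

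**Figure D4:**
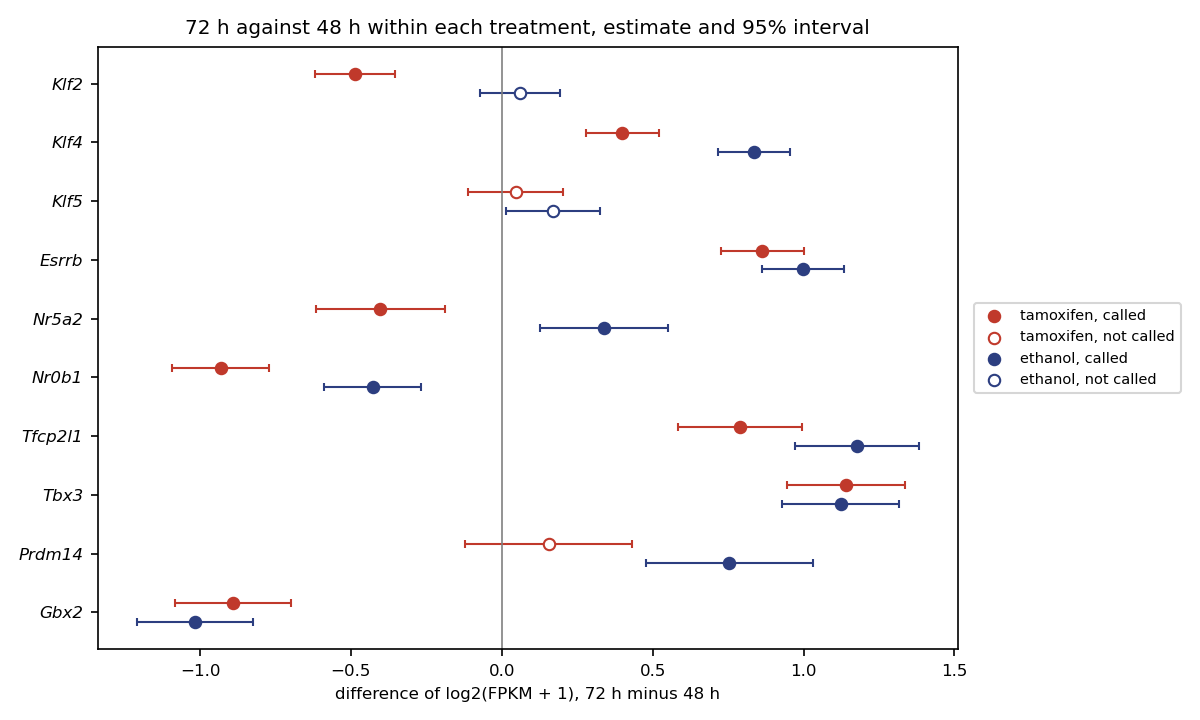
Difference of log2(FPKM + 1) between 72 h and 48 h for the 10 naive factors in tamoxifen (red) and ethanol (blue), as limma's estimate with its 95% interval, filled where called. The points of both treatments lie close together for each of Tbx3, Gbx2, Esrrb and Klf5, and Nr5a2 lies below 0 in tamoxifen and above 0 in ethanol.

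The order of the 4 groups differed between the factors. Klf4, Esrrb, Tfcp2l1 and Prdm14 had the order ethanol 72 h, tamoxifen 72 h, tamoxifen 48 h and ethanol 48 h from the highest mean to the lowest. In this order no neighbours overlapped for Klf4 and Tfcp2l1, while the libraries of both 72 h groups overlapped for Esrrb, and those of tamoxifen at 72 h and 48 h for Prdm14. Klf5 had the same order with an overlap at every step. Tbx3 was highest in tamoxifen at 72 h, followed by ethanol 72 h, tamoxifen 48 h and ethanol 48 h with no overlap. Klf2 and Nr5a2 were lowest in tamoxifen at 72 h and highest in ethanol at 72 h, and for Klf2 both 48 h groups overlapped. Nr0b1 was highest in tamoxifen at 48 h, which overlapped ethanol at 48 h, and lowest in tamoxifen at 72 h. Gbx2 was highest in ethanol at 48 h and lowest in ethanol at 72 h, where it overlapped tamoxifen at 72 h.

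Over the 8 libraries, which share the groups above and so describe mainly time and treatment, 5 of the 45 pairs of factors had a Pearson r above 0.9 and 5 below -0.9. Esrrb and Tfcp2l1 had r = 0.982, Klf4 and Tfcp2l1 r = 0.971, and Esrrb and Gbx2 r = -0.994. Among 7930 other genes with a mean of at least 5 FPKM, the one most like each factor was named by its r of log2(FPKM + 1). It was Casp8ap2 for Klf2 (r = 0.989), Cotl1 for Klf4 (0.994), Glce for Klf5 (0.985), Galk1 for Esrrb (0.999) and Ints7 for Nr5a2 (0.978). It was Tuba4a for Nr0b1 (0.987), Smtn for Tfcp2l1 (0.999), Furin for Tbx3 (0.999), Ndufs8 for Prdm14 (0.977) and Nsun2 for Gbx2 (0.997). Cotl1, which encodes an actin-binding protein, averaged 62.8 FPKM in tamoxifen and 88.8 FPKM in ethanol at 72 h, and 39.9 FPKM in tamoxifen and 39.8 FPKM in ethanol at 48 h.

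Genes of the LIF and STAT3 pathway and the WNT and TCF pathway, whatever their role there, were described from 2 lists. Counts over these lists therefore do not measure the signal that reaches the factors. Over all tested genes 38.5% were called at 72 h and 12.4% at 48 h. Of 14 tested genes of the LIF and STAT3 list 5 rose and 2 fell in tamoxifen at 72 h, and 2 rose and 0 fell at 48 h. Lif, the cytokine itself, had 7.12 and 6.73 FPKM in tamoxifen at 72 h, against 3.54 and 3.83 FPKM in ethanol, a log2 change of 0.76 ± 0.09 (SE, limma, adjusted p = 9.95e-05). It had also risen at 48 h (0.66 ± 0.09 SE, limma, adjusted p = 0.00141). Feeder fibroblasts are a known source of LIF, and their part in the rise of Lif was not tested. Junb, an early response gene, rose by 0.46 at 72 h, and Jak1, a receptor-associated kinase, rose by 0.26 at 48 h. Socs3, of the same list, lay the other way at 72 h. It had 48.3 and 45.9 FPKM in tamoxifen, against 62.8 and 58.0 FPKM in ethanol. Of 15 tested WNT and TCF genes 3 rose and 1 fell at 72 h, and 0 were called by limma at 48 h. At an unadjusted p under 0.05 limma had 2 higher and 1 lower at 48 h, and the share of all genes at that threshold was not computed. Among these WNT and TCF genes Porcn, which lipidates WNT proteins, rose by 0.36 and the receptor Fzd7 fell by 0.22 at 72 h. At 48 h Lef1, a TCF-family factor, stood at -0.36 (limma, adjusted p = 0.0568), and Lrp6, a WNT coreceptor, at 0.22. The medians of the LIF list were 0.07 at 72 h and 0.08 at 48 h, and those of the WNT list 0.01 at 72 h and 0.04 at 48 h, all near the medians of all genes. With 7 of 14 and 4 of 15 genes called at 72 h, the counts of both lists lay near the share over all genes.

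Of 15 tested core pluripotency genes 9 were called lower and 0 higher in tamoxifen at 72 h, beside 18.5% of all genes lower and 20.1% higher, and their median was -0.32. The other 6 were not called, and 4 of these had positive values (Dppa2, Utf1, Pou5f1 and Dppa4, from 0.08 to 0.14). At 48 h 1 fell (Tdgf1, a coreceptor of NODAL, by 0.21) and 0 rose. At limma's unadjusted p under 0.05, where the share of all genes was not computed, 3 were lower and 1 higher at 48 h. Dnmt3l, a cofactor of DNA methyltransferases, fell by 0.53 and Tdgf1 by 0.47 at 72 h. Sox2 is listed at 0 FPKM in all 8 libraries, although the authors' deposited tables give it means of 5819 scaled counts in tamoxifen and 5907 in ethanol at 48 h, so its FPKM are failed estimates and were not used. In the authors' deposited table at 72 h its means were 7871 in tamoxifen and 9365 in ethanol (log2 -0.25, their adjusted p = 0.00188). Of 19 formative and primed epiblast genes, which mark the states that follow naive pluripotency, 7 rose and 5 fell at 72 h, beside 20.1% of all genes higher and 18.5% lower, and 0 rose and 2 fell at 48 h, beside 7.88% higher and 4.47% lower. At 48 h the 2 were the DNA methyltransferase gene Dnmt3b (-0.34) and Lin28b (-0.31). At 72 h Myc rose by 0.79 and Etv4 by 0.67. In ethanol 14 of these 19 were lower at 72 h than at 48 h and 1 higher, beside 19.2% of all genes lower and 38% higher.

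Markers of extraembryonic cells were also examined, beside 20.1% of all genes higher and 18.5% lower at 72 h, and 7.88% higher and 4.47% lower at 48 h. Of 5 tested primitive endoderm markers 3 rose at 72 h and 1 at 48 h, led by Pdgfra (0.90 at 72 h), which is on the fibroblast list too, and Dab2 (0.65). Lrp2, the most abundant of the 5, lay the other way at 72 h, averaging 7.04 FPKM in tamoxifen and 8.27 FPKM in ethanol, and was not called. The summed level of 12 primitive endoderm markers was 19.7 to 19.9 FPKM in tamoxifen and 14.6 to 15.6 FPKM in ethanol at 72 h, and Afp was at 0 in 6 of the 8 libraries. Of 8 tested trophoblast markers 5 rose and 1 fell at 72 h, and 2 rose at 48 h. Among them Krt8, a keratin, rose by 0.46 and Hand1 by 0.84 at 72 h, while Tfap2c, the most abundant of them, had 48.3 and 46.5 FPKM in tamoxifen against 57.3 and 59.2 FPKM in ethanol and was the 1 that fell. At 48 h Tfap2c and Krt8 were the 2 that rose, by 0.38 and 0.20 (limma, adjusted p = 0.00709 and 0.0477). The response of Tfap2c thus differed between the times (difference -0.68, limma, adjusted p = 0.0111). The summed level of 12 trophoblast markers was 141 to 148 FPKM in tamoxifen and 132 FPKM in both ethanol libraries at 72 h, and their part in the changes of the naive factors was not tested.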

How the data were processed

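Polyadenylated RNA was sequenced as paired ends from 8 libraries in 4 groups, which were assigned from the labels. FPKM values, each with its interval and status flag, were used as deposited by the authors. The submitters' processing notes name mm9 as the build and Cufflinks 1.3.0, TopHat 1.4.1, BWA 0.6.1, DESeq and HTSeq as tools, without their roles. There were also 2 comparison tables that the authors deposited, whose group means are a signal of scaled counts, whose fold values are a ratio of these means, whose log2 fold changes run ethanol over tamoxifen as deposited (the sign was turned here), and whose p-values are their own.

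Of 20789 entries 209 without an OK status in every library were left out, and 1 entry per identifier, that of highest mean FPKM, left 20388 genes. The 11867 genes that reached an FPKM of 1 in 2 or more libraries were tested. One fit of limma 3.58.1 (R 4.3.3, statmod 1.5.0) on log2(FPKM + 1), with a mean per group over all 8 libraries (4 residual degrees of freedom) and a mean trend, gave 5 contrasts, two-sided, adjusted by Benjamini-Hochberg over all tested genes and called at 0.05. The fit was first tested on simulated data. The files hold no read counts. Fragments were taken from the interval width as a Poisson count, and 97.6% to 97.9% of low values came out whole within 0.02. They cover counting error only. Libraries of a group differed by 1.80 to 3.01 times the counting variance (median over genes), so none was a copy of another. Starts in the files count from 0 (6932 of 7762 genes compared with a GRCm38 gene table within 2 bases), so 1 was added.

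The named genes are the 10 factors, Htatsf1, the 2 genes of smallest p from each other list in the contrast described, and for each factor the most similar other gene. Pou5f1, Nanog, Sox2, Afp and the 10 scaling genes were named for checks of identity or scaling, and Tfap2c, Socs3 and Lrp2 at 72 h after their values were seen. The factors and all gene lists were chosen with earlier results of these data known. Alternatives were other scalings, pseudocounts of 0.1 and 5, other filters, no mean trend, the 4 libraries of a contrast alone, a replicate block and leaving out each library. A planned comparison of protein sequences was not done.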

Additional observations from a re-analysis of the deposited data

Results flagged for a closer look

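For 4 of the 10 naive factors the change in tamoxifen relative to ethanol differed between 72 h and 48 h in limma's test of the difference, beside 3.45% of all tested genes. The log2 change at 72 h minus that at 48 h was -0.549 for Klf2, -0.435 for Klf4, -0.504 for Nr0b1 and -0.742 for Nr5a2. Both tamoxifen libraries lay below both ethanol libraries at 72 h in each of these 4 genes, while at 48 h Klf2 and Nr0b1 overlapped, Klf4 lay higher and Nr5a2 lower in both tamoxifen libraries. The share of all tested genes without overlap was not computed. The summed fibroblast markers moved in the same libraries, to 1163 to 1238 FPKM in tamoxifen and 519 to 541 FPKM in ethanol at 72 h, and 797 to 803 FPKM in tamoxifen and 518 to 543 FPKM in ethanol at 48 h. With libraries scaled by 10 stem cell genes all 4 differences were still called (limma, adjusted p from 0.0173 to 0.0491). Without a filter on low values the calls of Klf2, Nr0b1 and Nr5a2 were lost (limma, adjusted p = 0.0895, 0.157 and 0.119). Without the mean trend that of Nr0b1 was lost (limma, adjusted p = 0.0706). These calls were also sensitive to leaving out single libraries.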

How the results depend on the processing

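Of the 18 alternatives tried at 72 h in tamoxifen against ethanol, the calls of Klf2, Klf4, Nr0b1, Nr5a2 and Tbx3 held in all. Each result stands on 2 libraries per group, and depth limits Prdm14 most.

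At 48 h 1466 genes were called, 523 without a filter on low values (then 0 naive factors higher). Leaving out single libraries gave 440 to 1583 genes and 0 to 1 naive factors higher. At 72 h this gave 3260 to 4505 genes (4572 with all libraries), with 4 to 6 factors lower and 1 higher. For the difference between the times 409 genes were called. The count was 879 with stem cell scaling, 30 without a filter (1 naive factor lower), 226 without the mean trend and 266 with the replicate block, and 50 to 243 genes and 0 to 3 factors lower when single libraries were left out. For 72 h against 48 h, stem cell scaling gave 1 factor lower in ethanol and 2 in tamoxifen. Leaving out libraries gave 5229 to 6861 genes, 5 to 7 factors higher and 2 lower in ethanol, and 5459 to 6672 genes, 4 higher and 4 lower in tamoxifen. Leaving out libraries lowers their number, and dropping the filter raises the number of genes tested. The causes of the changed counts were not tested.

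Directions turned for factors that were not called. In tamoxifen against ethanol at 48 h, Klf2 came to 0.0207 with stem cell scaling and Nr0b1 to -0.000136 with median-ratio scaling. At 72 h Klf5 (0.0866) and Esrrb (0.11) turned with stem cell scaling. The difference for Tbx3 came to -0.0162 with a pseudocount of 0.1. Between the times Klf2 in ethanol (-0.0669) and Klf5 in tamoxifen (-0.0718) turned with median-ratio scaling, and Prdm14 in tamoxifen (-0.0868) with quantile normalization. When single libraries were left out, the ranges crossed 0 at 48 h for Klf2 (-0.0838 to 0.0659), Klf5 (-0.0109 to 0.126) and Nr0b1 (-0.0113 to 0.0768). At 72 h they did so for Esrrb (-0.106 to 0.0195), Klf5 (-0.155 to 0.0227) and Gbx2 (-0.107 to 0.163), in the difference for Tbx3 (-0.0741 to 0.11) and Gbx2 (-0.00721 to 0.263), and between the times in tamoxifen for Klf5 (-0.0428 to 0.135) and Prdm14 (-0.000522 to 0.312).

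Scaling moved the split of called genes. At 48 h 935 were higher and 531 lower, and 818 and 768 with median-ratio scaling. At 72 h 2380 were higher and 2192 lower, and 4343 and 1042 with stem cell scaling, and in the difference 237 and 172, and 787 and 92. Between the times in ethanol 4506 were higher and 2278 lower, but 3343 and 3371 with median-ratio scaling, 3073 and 3226 with quantile normalization and 7362 and 871 with stem cell scaling. In tamoxifen these were 4446 and 2328, 3316 and 3311, 3051 and 3201, and 8735 and 479. The median of all genes between the times was 0.11 in both treatments as deposited, and within 0.02 of 0 with median-ratio scaling or quantile normalization.

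Deviations of same-numbered libraries from their group means had r from -0.276 (tamoxifen at 48 h and 72 h) to 0.145 (ethanol at 48 h and 72 h) over the pairs of groups. Nothing in the labels pairs these libraries. With the replicate block Tfcp2l1 was called lower at 72 h (-0.25, limma, adjusted p = 0.0204) and no other call of a naive factor changed.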
